A study of Drosophila melanogaster with 2 samples.

Results

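The genes described here encode nuclear subunits of the respiratory chain and of the ATP synthase in Drosophila melanogaster. They were chosen by symbol alone, as protein-coding genes whose symbol starts with ND-, UQCR-, COX followed by a digit, or ATPsyn, which gave 80 of 13968 protein-coding genes. By the same symbols, 40 belong to complex I (NADH dehydrogenase), 9 to complex III (cytochrome bc1), 16 to complex IV (cytochrome c oxidase) and 15 to complex V (the ATP synthase). Of the 80, 59 are main subunits and 21 are like forms, which are duplicate genes whose symbol ends in L or in L and a digit. ND-MNLL, which is named for its residues, was counted as a main subunit.

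The factor mapped was sugarbabe (sug), a fly protein with zinc fingers that is induced when larvae feed on sugar, and its binding was read by chromatin immunoprecipitation and sequencing (ChIP-seq). The material was whole embryos of mixed sex, aged 8 to 24 hours, from a transgenic line that stably expresses sug with a C-terminal GFP (sug-eGFP), and the antibody was directed against GFP. The study holds 1 group with 2 biological replicates, and embryos without the tagged protein were not analysed here. The peaks used are those the authors kept at their irreproducible discovery rate (IDR) threshold, 9342 summits on the dm6 assembly with signal scores from 223.8 to 24384 and a median of 424.3, and the highest of them lay inside sug itself, with rank 1 in replicate 1 and rank 3 in replicate 2. The files hold no counts of reads, and the depth behind each peak is therefore unknown. The signal is the authors' own score for each peak, and it was used only to rank summits within a list. Whole embryos hold many cell types, so a weak peak in all cells and a strong peak in few cells cannot be told apart.

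Oxidative phosphorylation passes electrons from NADH through complexes I, III and IV to oxygen, and the proton gradient that these complexes build drives the ATP synthase. Most subunits are encoded in the nucleus, while a few of the most hydrophobic ones are encoded in mitochondrial DNA, so the assembly of each complex needs products of both genomes. Many duplicates of nuclear genes for mitochondrial proteins in Drosophila are known to be expressed mainly in the testis.

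A gene was counted as bound when an IDR summit lay within 1 kb of any of its annotated transcription start sites (TSSs). Sequences from 7 of these promoters and from the highest summit of the only bound like form are printed as examples. The first 7 are the 150 bases just before the 5′ end of the gene, in which no exon is annotated, and the last is the 151 bases centred on the COX7AL2 summit. All are from the RefSeq copy of dm6, are written 5′ to 3′ on the strand of the gene, and carry in capitals any of 6 word groups that were searched on both strands. ND-MNLL (X:7893799-7893948, minus strand) and ND-SGDH (3L:12138585-12138734, minus strand), small accessory subunits of complex I with a summit 95 and 106 bp upstream of their TSS, each hold a word of the nuclear respiratory gene element 86 to 79 bases before it. ND-B14.5A (X:2172376-2172525, plus strand), another accessory subunit with a summit 48 bp upstream, is set beside its unbound like form ND-B14.5AL (3L:22606219-22606368, plus strand). In ND-B14.5A the capitals are TATCGATA and GATAAG, which overlap. ND-B17 (2L:15751079-15751228, minus strand) is shown for GGTCACAC 15 to 8 bases before the TSS. COX4 (2L:19958563-19958712, plus strand), the complex IV main subunit without an IDR summit, holds TATCGATA and GGTCACAC. ATPsynO (3R:15265441-15265590, plus strand), with a summit 22 bp upstream, and the COX7AL2 summit (2L:2198783-2198933, minus strand) hold none of the words.
ND-MNLL: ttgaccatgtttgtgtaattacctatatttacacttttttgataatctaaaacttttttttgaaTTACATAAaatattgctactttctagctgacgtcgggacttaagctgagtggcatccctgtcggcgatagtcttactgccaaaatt
ND-SGDH: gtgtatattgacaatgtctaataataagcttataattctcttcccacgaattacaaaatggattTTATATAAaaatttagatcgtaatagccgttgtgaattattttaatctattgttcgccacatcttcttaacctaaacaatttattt
ND-B14.5A: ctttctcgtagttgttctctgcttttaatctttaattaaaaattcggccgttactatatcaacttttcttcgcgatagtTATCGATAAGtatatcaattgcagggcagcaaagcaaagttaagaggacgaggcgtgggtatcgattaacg
ND-B14.5AL: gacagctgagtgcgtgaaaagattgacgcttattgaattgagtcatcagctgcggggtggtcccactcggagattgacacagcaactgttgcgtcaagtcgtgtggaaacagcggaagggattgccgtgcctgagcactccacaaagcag
ND-B17: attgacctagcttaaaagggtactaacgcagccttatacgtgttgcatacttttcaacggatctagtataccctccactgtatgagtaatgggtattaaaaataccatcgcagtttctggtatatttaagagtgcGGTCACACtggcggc
COX4: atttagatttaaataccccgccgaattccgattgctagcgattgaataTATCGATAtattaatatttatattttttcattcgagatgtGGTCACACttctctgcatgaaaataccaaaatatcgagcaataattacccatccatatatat
ATPsynO: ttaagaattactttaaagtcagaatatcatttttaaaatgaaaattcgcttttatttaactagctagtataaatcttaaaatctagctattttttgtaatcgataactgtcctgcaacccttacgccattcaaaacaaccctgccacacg
COX7AL2: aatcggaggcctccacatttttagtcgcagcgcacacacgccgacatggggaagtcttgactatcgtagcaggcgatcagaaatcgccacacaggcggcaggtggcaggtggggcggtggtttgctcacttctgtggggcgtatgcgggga

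A larger share of main subunits than of protein-coding genes in general was bound, and 1 like form was. Of the 80 genes, 39 (48.8%) were bound, against 39.3% of all protein-coding genes. The main subunits accounted for 38 of these, which is 64.4% of 59. The like forms accounted for 1, COX7AL2, which is 4.76% of 21. These shares are a description of 1 peak set and carry no p-value, since genes are not replicates of the experiment and there was no second group to compare.

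Among main subunits the share was smallest in complex I and larger in each later complex. In complex I, 17 of 34 main subunits were bound, and in complex III 4 of 6 (66.7%). In complex IV, 7 of 8 were bound (87.5%), and in the ATP synthase 10 of 11 (90.9%). All 4 shares lie above the 39.3% of all protein-coding genes, and that of complex I lies nearest to it. The order rests on small numbers outside complex I, where 1 gene moves the share of complex III from 4 of 6 to 5 of 6. It did not hold in every setting. Among IDR summits above the median signal complex III had 0 of 6 and complex I 10 of 34. With a window of 200 bp complex IV had 4 of 8 and complex III 4 of 6. Like forms were unbound in complex I (0 of 6), complex III (0 of 3) and the ATP synthase (0 of 4), and 1 of 8 was bound in complex IV.

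**Figure D1:**
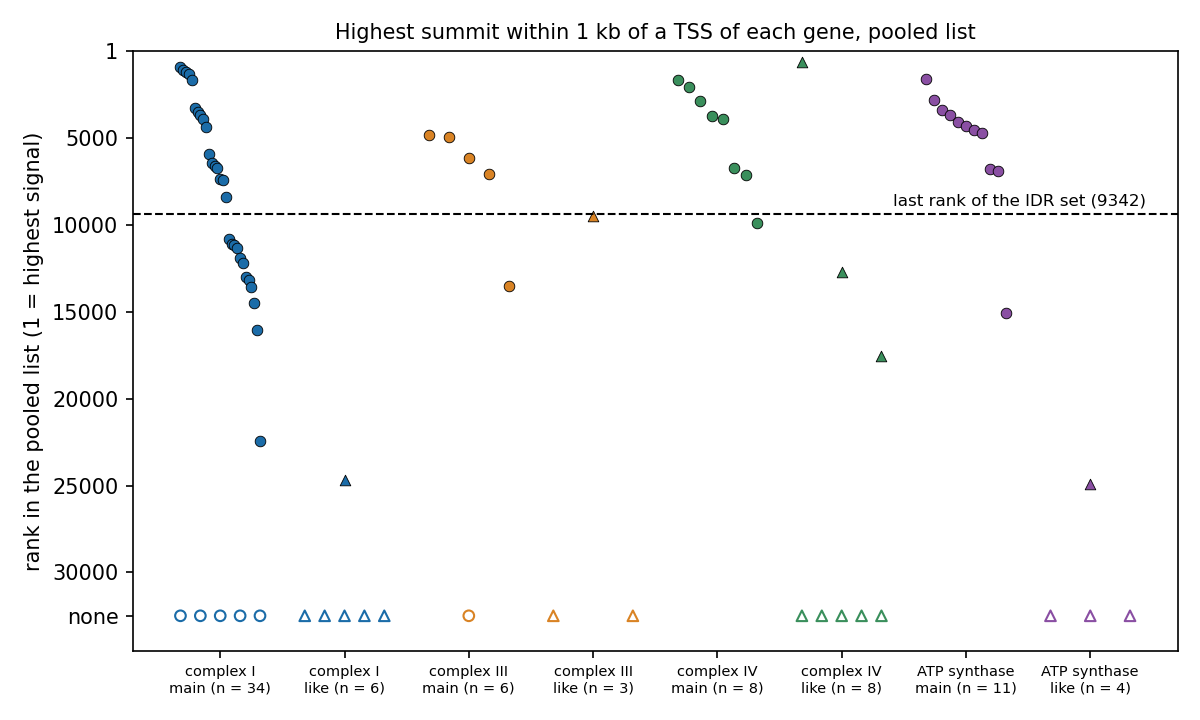
Rank of the highest summit within 1 kb of a TSS of each gene (vertical axis, 1 is the highest signal) in the pooled list, for main subunits (circles) and like forms (triangles) of each complex, with genes that have no such summit as open symbols at the bottom. The dashed line is the last rank of the IDR set (9342), and 38 main subunits and 1 like form lie above it.

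The signals of the bound main subunits were ordinary for this peak set. The highest promoter summit of each had a signal from 251.6 to 1229, with a median of 462.3, against a median of 516.7 over all bound protein-coding genes. As a percentile of the IDR set the median was 55.3 for main subunits and 61.4 for bound genes in general. By complex the median signal was 489.3 in complex I, 371.8 in complex III, 504.6 in complex IV and 462.3 in the ATP synthase. The share of main subunits bound was thus above the background while their median signal was below it.

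Complex I carried both the highest and the lowest signals of the main subunits. ND-ASHI, an accessory subunit of the membrane arm, had the highest, 1229 (rank 890 of the IDR set), with ranks 956 in replicate 1 and 930 in replicate 2. Its summit at X:6679401, in the interval X:6679125-6679935, lay 283 bp upstream of the ND-ASHI TSS, in an intron of Fum1, a fumarase gene of the citric acid cycle, and Fum1 has the nearer TSS at 239 bp. The gene had 2 further IDR summits, with signals of 364.2 and 362.8. The last of these lay in an intron of ND-ASHI, 44 bp upstream of another annotated TSS inside the gene.

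ND-MWFE, a small subunit of the membrane arm, had a signal of 1098 at 2R:13158481 (interval 13158309 to 13158704), 185 bp upstream of its TSS, with rank 2386 in replicate 1 and 678 in replicate 2. That summit lay in an intron of TppII, a peptidase gene whose TSS is 36 bp away. ND-42, an accessory subunit at the matrix side, had a signal of 1067 at 3R:22027535 (interval 22027234 to 22027813), 174 bp upstream, with replicate ranks 1748 and 875, and Cchl has the nearer TSS at 55 bp. ND-42 had a further summit 33 bp downstream of its TSS, in its own 5′ UTR, with a signal of 294.2 and no partner in either replicate. The highest summits of ND-ASHI, ND-MWFE and ND-42 were thus all nearer to the neighbouring gene, and they name a shared promoter region and not a single target.

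The core subunit ND-51, which binds NADH, had a signal of 979.9 at 2L:6062857 (interval 6062654 to 6063044), 100 bp upstream of its own TSS and nearest to it, with replicate ranks 2280 and 941. ND-SGDH had a signal of 857.6 at 3L:12138690 (interval 12138407 to 12138932), 106 bp upstream, with replicate ranks 3131 and 1063. In 5 of the 5 highest complex I genes the rank was higher up in replicate 2 than in replicate 1, by a narrow margin in ND-ASHI. At the other end ND-B14.5B had the lowest signal of all, 251.6 (rank 8370).

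The core subunits of complex I, which carry the flavin, the iron-sulfur clusters and the quinone site and have bacterial counterparts, were bound in 4 of 7 cases. ND-20, ND-24, ND-30 and ND-51 were bound, with a median signal of 403.5, and ND-23, ND-49 and ND-75 were not. Of the 27 accessory subunits 13 were bound, with a median signal of 513.8. Both shares thus lie near the 17 of 34 of complex I main subunits as a whole.

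Complex III had the lowest median signal and the tightest placement. UQCR-C2, a core protein at the matrix side, had a signal of 413.1 at 3L:16584250, with rank 4616 in replicate 1 and 5805 in replicate 2. That summit lay in the 5′ UTR of UQCR-C2 itself, 23 bp upstream of a TSS inside the gene. UQCR-14 had 405.0 at X:16286269, 19 bp upstream and inside the 3′ UTR of CG32576, with ranks 6940 and 4411. UQCR-Q had 338.5 at 3L:17475005, also in its own 5′ UTR and 44 bp upstream of a TSS inside the gene, with ranks 7349 and 5354. The remaining one, the core protein UQCR-C1, had 299.7 at 25 bp downstream of its TSS. All 4 summits therefore lay within 200 bp of a TSS of their gene and were nearest to the complex III gene itself, and all 4 signals lie below the median of the IDR set.

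In complex IV the highest main subunits were COX7B, COX8, COX5A and COX5B, all nuclear subunits that surround the mitochondrially encoded catalytic core. COX7B had a signal of 857.5 at 3L:17425382 (interval 17425179 to 17425557), 95 bp upstream of its TSS, with replicate ranks 2626 and 1179. COX8 had 749.6 at 3L:21540041, but 594 bp upstream and in a coding exon of VhaM9.7-b, a gene for a subunit of the vacuolar proton pump whose TSS is 179 bp away, with ranks 1550 and 2874. COX5A had 609.0 at 3R:11819527, in its own intron and 72 bp upstream of a TSS inside the gene, with ranks 4939 and 1824. COX5B, a zinc-binding subunit, had 504.6 at 2L:6557578, 222 bp upstream, with ranks 5952 and 2733, and IFT52 has the nearer TSS at 76 bp. Every one of the 7 bound complex IV main subunits had its highest summit within 1 kb of the TSS of another gene as well.

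In the ATP synthase, genes of every structural part were bound. The head and rotor had 3 of 4 (ATPsynC, ATPsynbeta and ATPsyngamma, median signal 450.9), the peripheral stalk that holds the head in place had 4 of 4 (ATPsynB, ATPsynCF6, ATPsynD and ATPsynO, median 473.6), and the small membrane subunits had 3 of 3 (ATPsynE, ATPsynF and ATPsynG, median 473.7). The 3 medians differ little.

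ATPsynC, the subunit of the proton-driven ring, had the highest signal, 883.6 at 3R:31219583 (interval 31219305 to 31219811), 24 bp upstream of a TSS, with replicate ranks 1347 and 1649 and 2 further summits with signals of 458.6 and 327.7. ATPsynF had 610.9 at 2R:24599854, 33 bp upstream, with ranks 4135 and 2084. ATPsynO had 539.5 at 3R:15265569, 22 bp upstream, with ranks 4512 and 2966. ATPsynB had 511.3 at 3L:9729972, 27 bp upstream, with ranks 4104 and 4095. These 4 summits all lay nearest to the ATP synthase gene. ATPsynbeta, the catalytic subunit of the head, had a lower signal, 310.5, at 568 bp upstream of its TSS and 59 bp from that of CG11076. A second summit, with a signal of 268.5, lay in a coding exon of ATPsynbeta, 44 bp downstream of another annotated TSS inside the gene.

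Summits of the main subunits lay close to an annotated start site and mostly just before it. The median distance of the highest summit from the nearest TSS of the gene was 95 bp, against 151 bp over all bound protein-coding genes. By that nearest TSS it lay upstream in 30 genes and downstream in 8, so that 78.9% were upstream, against 77.4% of bound genes in general. An upstream summit can still lie inside a gene with several TSSs. This was so in ND-24, UQCR-C2, UQCR-Q, COX5A, ATPsynC and ATPsyngamma, where it lay downstream of the 5′ end of the gene. Within 200 bp lay 26 of 38 (68.4%, against 60.4%). By annotation 18 were intergenic, 12 in a 5′ UTR (8 of them in that of the gene itself), 6 in an intron, 1 in a 3′ UTR and 1 in a coding exon. In 10 genes there were several promoter summits and in 28 only 1, against several in 30.5% of bound genes in general. The median length of the 59 main subunit genes was 1178 bp, against 2164.5 bp over all protein-coding genes.

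**Figure D2:**
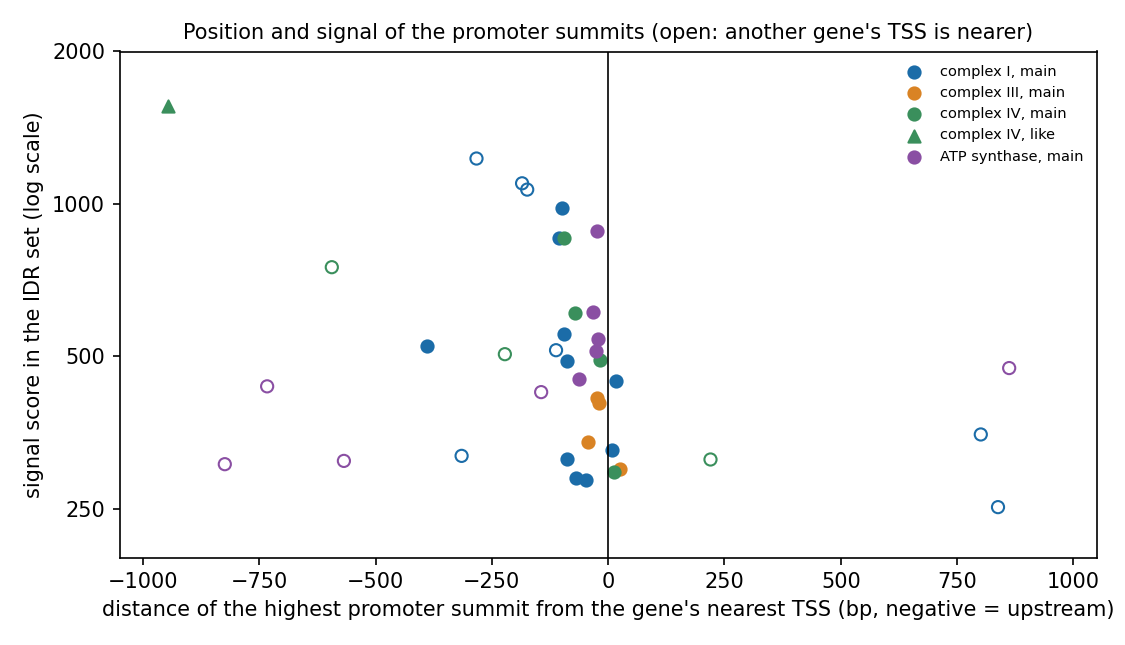
Signal score in the IDR set (vertical axis, log scale) against the distance of the highest promoter summit from the nearest TSS of the gene (horizontal axis, bp, negative is upstream) for the 38 bound main subunits (circles, coloured by complex) and COX7AL2 (triangle). Open symbols mark the 15 genes where the TSS of another gene is nearer, and all 7 main subunits beyond 500 bp are among them.

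Many of these summits were near the TSSs of several genes. In 30 of 38 bound main subunits (78.9%) the highest summit was also within 1 kb of the TSS of another gene, which was protein-coding in 28, against 60.2% of bound protein-coding genes. The highest summit was nearest to the respiratory gene in 23 and nearer to another gene in 15. In all bound protein-coding genes it was nearest to the gene in 71.0%. Beyond 500 bp lay 7 summits, those of ND-15, ND-B14.5B, COX8, ATPsynD, ATPsynE, ATPsynG and ATPsynbeta, and all 7 were nearer to another gene. The neighbour was cdi at 3 bp for ATPsynD, CG3436 at 13 bp for ND-15, toc at 97 bp for ND-B14.5B, spn-B at 121 bp for ATPsynE and SCAR at 451 bp for ATPsynG. ATPsynE also had a weaker summit at its own start site, with a signal of 470.6 at 24 bp. ND-15 had a weaker one too, with a signal of 269.3, 33 bp from a TSS inside the gene. That summit lay in a 5′ UTR of both ND-15 and Pus10, and the TSS of another gene was nearer there as well. No 2 of the 80 genes shared a promoter summit.

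When each summit was counted only for the gene with the nearest TSS, 28 main subunits and 1 like form remained, against 29.9% of all protein-coding genes. Complex I then had 12 bound main subunits, complex III 4, complex IV 5 and the ATP synthase 7. The share of main subunits was 47.5%, against 64.4% when shared summits counted for every gene.

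A window wider than 1 kb added few main subunits, while a window of 200 bp removed more, above all in complex IV. The bound genes nearest to the 1 kb limit were ATPsynG at 824 bp (signal 305.9) and ND-B14.5B at 838 bp (251.6). Just beyond it were 2 like forms, UQCR-6.4L, whose nearest IDR summit was 1005 bp away (308.7), and UQCR-11L, at 1122 bp (524.6). With a window of 200 bp 30 main subunits and 0 like forms were bound, against 27.7% of protein-coding genes, and with 500 bp 34 and 1, against 35.0%. With 2 kb 40 main subunits and 6 like forms were bound, against 45.3%. Narrowing the window to 200 bp took complex IV from 7 to 4 main subunits, and left complex I with 14, complex III with 4 and the ATP synthase with 8. With only the annotated 5′ end of each gene in place of all its TSSs, 37 main subunits and 1 like form were bound, against 37.4% of protein-coding genes. Where a peak interval had only to touch the 1 kb window, 38 and 3 were bound, against 40.5%.

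Both replicates held most of these summits. A partner within 100 bp was found in the list of replicate 1 for 36 of the 38 bound main subunits, in that of replicate 2 for 36, and in both for 34, and over all bound protein-coding genes both had a partner in 90.1%. Since the authors made the IDR set out of these lists, the counts are not independent of the choice of peaks. ND-15 and ATPsyngamma had no partner in replicate 1, and ND-30 and ND-B17 none in replicate 2. The partners ranked from 956 to 12368 in replicate 1 (median 4857) and from 678 to 11311 in replicate 2 (median 3846.5). ATPsynG had rank 4411 in replicate 1 and 11311 in replicate 2.

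**Figure D3:**
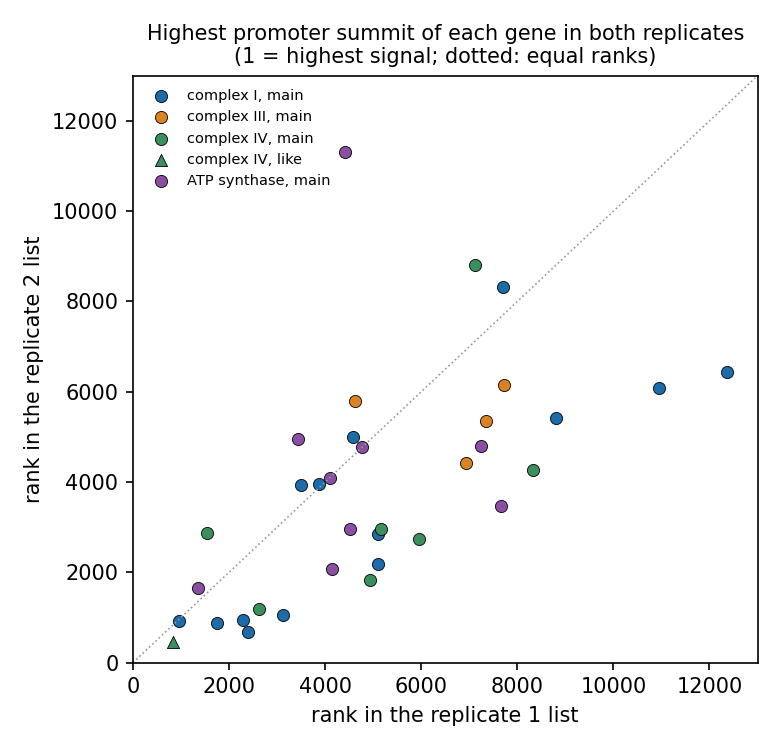
Rank of the partner of each highest promoter summit in replicate 1 (horizontal axis) and replicate 2 (vertical axis), 1 being the highest signal, for the 34 bound main subunits (circles) and COX7AL2 (triangle) with a partner in both lists, and the dotted line marks equal ranks. More points lie below the line than above it, and ATPsynG stands apart at 4411 and 11311.

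Taken alone, each replicate gave most of the same genes. Among the highest 9342 summits of replicate 1, 39 main subunits and 2 like forms had a promoter summit, against 37.4% of protein-coding genes, and of replicate 2, 41 and 2, against 40.1%. Of the 41 genes bound in replicate 1 and the 43 in replicate 2, 37 were bound in both, which is 90.2% and 86.0%. The same overlap was not counted over all protein-coding genes, so these shares cannot be called particular to the respiratory genes. COX4, ND-19, ND-30 and ND-B17 were bound in replicate 1 only, and ND-20, ND-23, ND-AGGG, ND-B14.5B, ND-MLRQ and UQCR-11 in replicate 2 only. The like forms were COX7AL2 and UQCR-11L in both replicates, but the UQCR-11L summit lay 990 bp upstream of the TSS in replicate 1 (rank 6298) and 310 bp upstream in replicate 2 (rank 7740), which are different sites. Complex I had 17 bound main subunits in replicate 1 and 19 in replicate 2, complex III 4 and 5, complex IV 8 and 7, and the ATP synthase 10 and 10.

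Of the 21 main subunits without an IDR summit at the promoter, 17 belong to complex I, 2 to complex III (UQCR-11 and UQCR-6.4), 1 to complex IV (COX4) and 1 to the ATP synthase (ATPsyndelta, of the rotor). Most of them had a weaker summit in the pooled list, which holds the IDR set and, below it, summits of lower signal. A summit within 1 kb stood in that list for 15 of 21 (71.4%), against 25.1% of the protein-coding genes without an IDR promoter summit, and within 200 bp for 14 (66.7%, against 13.3%). Their ranks ran from 9861 to 22433, with a median of 13014. Both replicate lists held a promoter summit for 13 of the 21, replicate 1 alone for 3, replicate 2 alone for 4, and neither for 1, ND-18. These counts in the whole replicate lists were not made over all protein-coding genes, so they cannot be called particular to the main subunits. The distance to the nearest IDR summit was 1741 to 2025248 bp, with a median of 4187 bp, and was over 5 kb for 8.

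Among these main subunits COX4 came closest to the threshold, with rank 9861 in the pooled list at 47 bp downstream of its TSS, and ranks 8600 in replicate 1 and 13285 in replicate 2. ND-19 followed with 10775, ND-B16.6 with 11110, ND-B15 with 11139, ND-13B with 11322, ND-B12 with 11867 and ND-PDSW with 12173. ND-13A had rank 13014, ND-ACP, the mitochondrial acyl carrier protein, 13143, UQCR-6.4 13510, ND-75 13545, ND-AGGG 14469, ATPsyndelta 15069, ND-B14.7 16022 and ND-49 22433. All of these but ND-49, at 317 bp upstream, lay within 200 bp of the TSS. ND-18, ND-23, ND-B14, ND-B18, ND-MLRQ and UQCR-11 had no promoter summit in the pooled list.

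With all rows of the pooled list, 53 main subunits (89.8%) and 6 like forms (28.6%) had a promoter summit, against 54.5% of protein-coding genes. Complex I then had 29 of 34, complex III 5 of 6, complex IV 8 of 8 and the ATP synthase 11 of 11. With the stricter set of IDR summits above the median signal, 23 main subunits and 1 like form were bound, against 24.3%. Complex III then had 0 of 6, complex I 10 of 34, complex IV 5 of 8 and the ATP synthase 8 of 11. The order of complex IV and the ATP synthase above complex I held in all of these sets, and main subunits lay above the background and like forms below it in each.

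**Figure D4:**
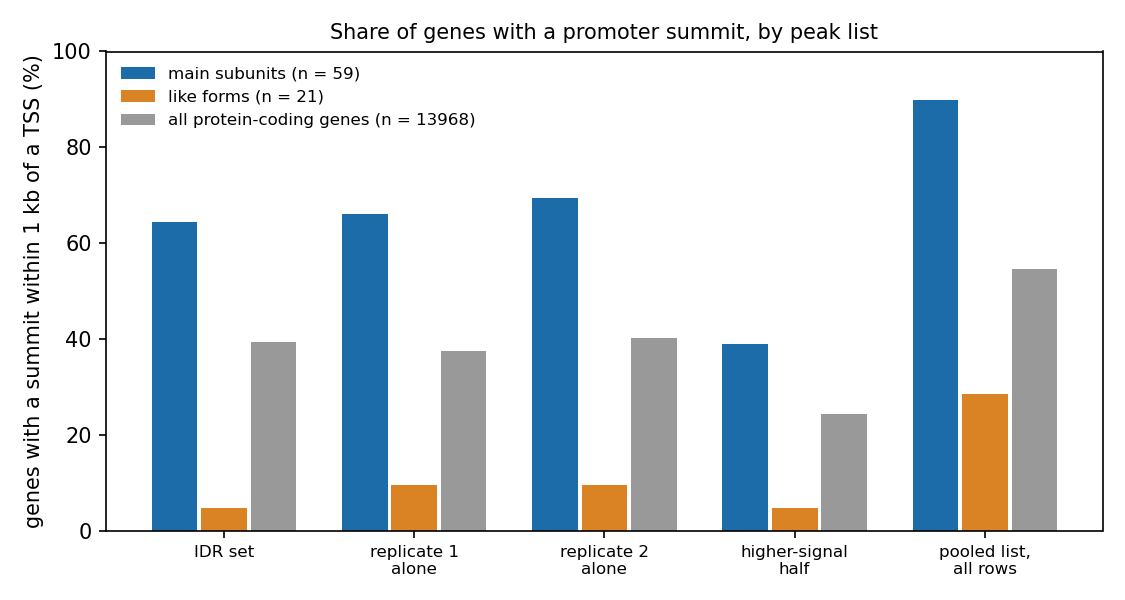
Share of genes with a summit within 1 kb of a TSS (vertical axis, percent) for main subunits (n = 59), like forms (n = 21) and all protein-coding genes (n = 13968), in the IDR set, each replicate alone, the IDR summits above the median signal and the whole pooled list. Main subunits are above all genes in each set (64.4% against 39.3% in the IDR set), and like forms are below them (4.76%).

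The number of annotated start sites differs between the groups, and a gene with more of them has a larger window. The main subunits had a median of 2 TSSs and the like forms of 1. Among genes with 1 TSS, 14 of 27 main subunits were bound (51.9%), 0 of 19 like forms, and 31.7% of 10269 protein-coding genes. Of the genes with more, 24 of 32 main subunits and 1 of 2 like forms were bound. Over all protein-coding genes 5485 of 13968 were bound, and 3253 of the 10269 with 1 TSS. Genes with more TSSs were therefore bound in a larger share in general as well, and the 24 of 32 is to be read against that larger share. The comparison of 64.4% of main subunits with 39.3% of all protein-coding genes is not matched for TSS number. The like forms are also shorter, with a median length of 703 bp. The part of TSS number and length in the shares was not tested beyond these counts.

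By chromosome arm, 10 of 11 main subunits on 3R were bound (against 40.1% of all protein-coding genes of that arm), 9 of 12 on 2L (36.6%), 8 of 13 on 3L (39.1%), 7 of 12 on X (38.7%), 3 of 9 on 2R (41.8%) and 1 of 2 on the fourth chromosome (32.5%). The share of main subunits was above that of the arm's genes on each of these but 2R, where it was below.

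Each like form was paired with the gene whose symbol it extends, and the COX6AL forms, COX6CL and ATPsynepsilonL with levy, cype and sun, which encode the matching subunits under other names. In 15 of the 21 pairs only the main subunit was bound, in 1 pair both were (COX7A and COX7AL2), in 5 neither was (those of ND-49, UQCR-11, UQCR-6.4, COX4 and sun), and in 0 only the like form was. Both like forms of ND-51 (signal 979.9) and both of levy (796.8) were unbound. The pairs lie on different chromosome arms in 15 cases.

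The proteins of the pairs share from 30.3% of aligned residues (COX6CL and cype) to 85.6% (UQCR-14L and UQCR-14), with a median of 51.1%. UQCR-14L, the form most like its main subunit, lay 31114 bp from the nearest IDR summit, and UQCR-14 had a summit 19 bp from its TSS. Among the other forms with at least 70.1% identity, UQCR-11L (78.8%) lay 1122 bp from the nearest IDR summit, ND-20L (76.8%) 22233 bp, ND-51L1 (75.8%) 2634 bp, ATPsynepsilonL (72.1%, to sun) 1859 bp and ATPsynbetaL (70.1%) 10218 bp. Over the 20 unbound like forms the nearest IDR summit was 1005 to 127371 bp away, with a median of 10715.5 bp, and it was over 5 kb away for 13. In the pooled list 5 of the 20 (25.0%) had a promoter summit and 1 of them had it within 200 bp, COX7AL at 130 bp upstream with rank 17523. The highest of the 5 was UQCR-11L, with rank 9484 at 994 bp upstream, nearer to the last IDR rank (9342) than COX4. The 25.0% of unbound like forms with a pooled promoter summit is close to the 25.1% of unbound protein-coding genes.

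COX7AL2 was the bound like form. It encodes a protein with 34.4% identity to COX7A, on the minus strand of 2L (2192525 to 2197912, FBgn0085201), and it had 5 promoter summits. The highest, at 2L:2198858 in the interval 2196416 to 2199489, had a signal of 1561 and rank 584, with ranks 840 in replicate 1 and 462 in replicate 2, and was above every main subunit. It was intergenic and 946 bp upstream of the distal TSS, which is the nearest TSS of any gene. A second lay 253 bp upstream of the same TSS (signal 887.1), and another 844 bp downstream in an intron (789.6). The gene also has TSSs 4902 and 4949 bp from the distal one, with summits 598 bp upstream of them (857.6) and 544 bp downstream (338.2). No summit of the gene lay within 200 bp of a TSS.

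**Figure D5:**
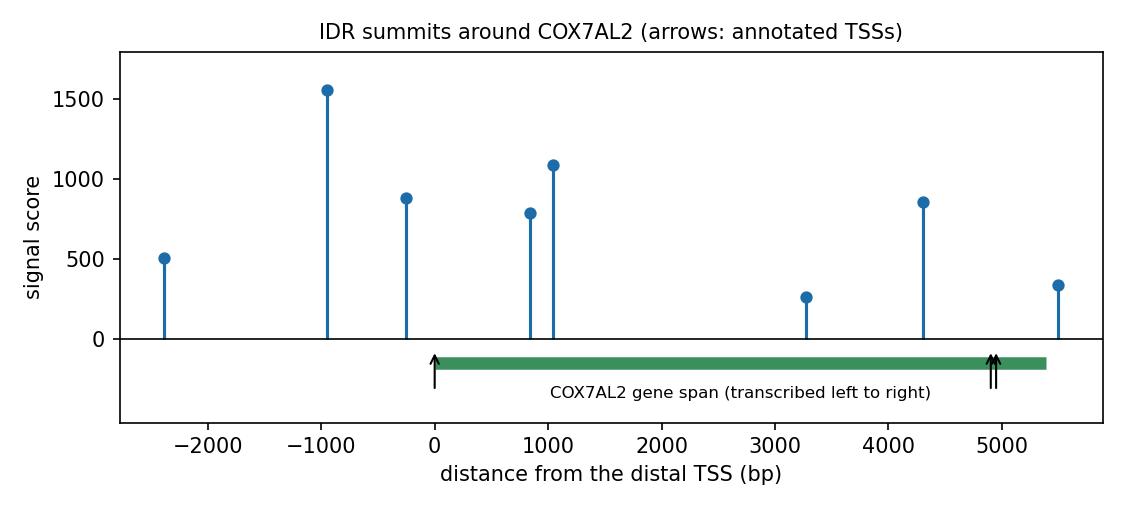
Signal score (vertical axis) of the 8 IDR summits around COX7AL2 against the distance from its distal TSS (horizontal axis, bp in the direction of transcription), with arrows at the annotated TSSs and the gene span as a bar. The highest summit (1561) stands 946 bp upstream of the distal TSS, and none stands at a TSS.

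Words of known promoter elements were looked for in the 300 bases from 250 before to 50 after the 5′ end of each gene, on both strands. The words included TATCGATA (the DNA replication-related element, DRE, bound by DREF), GGTCACAC (the core of the element bound by M1BP) and CACGTG, an E-box. To these were added CCCCCC as a run of cytosines, the GATA factor word GATAAG, and the 4 words TTACATAA, TTACGTAA, TTATATAA and TTATGTAA of the nuclear respiratory gene element. GATAAG can overlap TATCGATA, and TTACATAA is the reverse complement of TTATGTAA. A match is a description of the letters and not a site. GGTCACAC stood in 14 of 59 main subunit promoters (23.7%), against 7.69% of all protein-coding promoters and 1 of 21 like forms, and in complex IV in 4 of 8. It was present in 18.4% of bound and 33.3% of unbound main subunits, which is 7 genes in each. Over all protein-coding genes the order was the other way, with 11.6% of bound and 5.18% of unbound ones. TATCGATA stood in 9 of 59 (15.3%, against 9.36%) and in 0 like forms. It was present in 13.2% of bound and 19.0% of unbound main subunits, against 13.6% and 6.63% over all protein-coding genes.

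The nuclear respiratory gene words stood in 5 of 59 (8.47%, against 5.18%), all 5 in complex I: ND-30, ND-42, ND-49, ND-MNLL and ND-SGDH. In ND-42, ND-MNLL and ND-SGDH the word was also within 100 bp of the summit. GATAAG stood in 12 main subunits (20.3%, against 18.9%), 10 of the 38 bound and 2 of the 21 unbound. Over all protein-coding genes it stood in 21.9% of bound and 17.0% of unbound ones. CACGTG stood in 2 (3.39%, against 4.20%) and CCCCCC in 3 (5.08%, against 2.74%). Within 100 bp of the highest summits of the 38 bound main subunits, TATCGATA was found in 10.5%, GGTCACAC in 10.5%, GATAAG in 10.5%, the nuclear respiratory gene words in 7.89%, CACGTG in 2.63% and CCCCCC in 2.63%. At the summits of all bound protein-coding genes the shares were 8.28%, 5.51%, 21.3%, 3.61%, 3.01% and 5.96%. The share of bound main subunits with GATAAG at the summit was thus below that of bound genes in general, while in the promoter it was 26.3% against 21.9%.

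Genes of the same pathway with other names were also bound in a larger share than the background. A list of 35 was drawn up, 32 of which matched a symbol of the annotation, and 23 of these (71.9%) were bound, against 39.3% of protein-coding genes. Subunits and carriers, with 12 of 13, make up most of the 23. Of the subunits of succinate dehydrogenase (complex II), SdhA (signal 235.4), SdhB (281.0), SdhC (448.7) and SdhD (275.5) were bound, and the like forms SdhAL and SdhBL were not. The SdhC summit was nearest to Tctp, and the highest SdhA summit lay 970 bp from its TSS, with rank 16025 in replicate 2. Among the 12 bound subunits and carriers, blw, the alpha subunit of the ATP synthase head, had the highest signal, 873.7. The cytochrome c genes Cyt-c-d and Cyt-c-p had 846.7 and 545.7, levy 796.8, and ox, a subunit of complex III, 611.7. Of these summits that of Cyt-c-d was nearest to CG31808, that of levy to wmd and that of ox to Dgkepsilon, while that of Cyt-c-p was nearest to Cyt-c-p but 960 bp from its TSS. The like form Cyt-c1L, unlike SdhAL and SdhBL, was bound, with a signal of 255.8 (rank 8242) at 711 bp upstream of its TSS, which was the nearest. The adenine nucleotide carriers sesB and Ant2, which are neighbours, shared a summit with 270.2. Of the 13 subunits and carriers only sun, the epsilon subunit of the ATP synthase, was unbound, and it had a promoter summit with rank 9675 in the pooled list.

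Of the 7 matched assembly factors 3 were bound, a share near the 39.3% of all protein-coding genes. CIA30, an assembly factor of complex I, had the highest signal of all genes described here, 2995 (rank 178), at 104 bp upstream of its TSS, with ranks 301 in replicate 1 and 125 in replicate 2. Cox17, a copper chaperone of complex IV, had 921.7 and Cox10, an enzyme of heme A synthesis, 321.9. Surf1, Scox, Cox11 and sicily had no IDR promoter summit, and of these Surf1 alone had one in the pooled list (rank 13681). Of the 6 genes listed as regulators, of nuclear or of mitochondrial genes, 4 were bound, against 39.3% of all protein-coding genes. They were srl, the fly PGC-1 homolog, with 388.9, ewg, the homolog of NRF-1, with 425.4, Ets97D, with 264.5, and mtTFB1, with 264.9. The mtTFB1 summit lay 803 bp upstream of its TSS and was nearest to CG11658, with rank 16715 in replicate 2. TFAM and mtTFB2, which act on mitochondrial DNA, had no IDR promoter summit but had one in the pooled list, with ranks 12956 and 13267.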

How the data were processed

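ChIP-seq was done on whole sug-eGFP embryos in 2 biological replicates, and per the labels the DNA fragments measured 200 to 800 bp. Per the deposited text files, the authors called peaks on each replicate and on the pooled reads together with a control, on dm6, and kept an IDR set. Which aligner and caller were used, and in which version, is not given in the sources used here. The control was not analysed here. The deposited lists hold, per peak, a signal score and a −log10 q from the authors. The −log10 q is 4.38 in every IDR row and ranks nothing. The replicate and pooled lists hold 30000 rows each, so they were capped, and the IDR set equals the 9342 highest rows of the pooled list. No reads were counted, so the depth and its precision are unknown. In 2 IDR rows a summit offset beyond the interval was moved back to the interval's last base.

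Summits were assigned to every gene with a TSS within 1 kb (Ensembl release 115, protein-coding genes on the arms 2L, 2R, 3L, 3R, 4, X and Y, transposable elements left out). A partner is a summit within 100 bp. Sequence came from the RefSeq copy of dm6. Words were searched on both strands, and proteins translated from the annotated coding sequence were aligned globally with Biopython 1.88. The assignment was tested on simulated data, where 400 of 400 genes were assigned right. Python 3.11.15, numpy 2.4.6 and matplotlib 3.10.9 were used.

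The genes and lists were chosen with earlier results of these data known. No p-value is given. Genes described in full are, per complex, the main subunits with the highest signal (5 in complex I, 3 in complex III, 4 each in complex IV and the ATP synthase), every bound like form, all pairs, all main subunits without an IDR promoter summit, genes whose nearest IDR summit lay 800 to 1200 bp from a TSS, and the list of other respiratory genes. Other genes singled out were chosen after their values were seen. Alternatives were other windows, peak sets, TSS sets and assignments.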

Additional observations from a re-analysis of the deposited data

How the results depend on the processing

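Of 145 values recomputed under other settings, 122 stayed within 1.5 times the count, or within the spread between replicates, and 23 moved. Above the median IDR signal, 24 genes were bound in place of 39, 23 main subunits in place of 38, 10 of complex I (all main subunits) in place of 17 and 0 of complex III in place of 4, while 16 in place of 29 were the nearest gene of a promoter summit, and the median percentile of bound genes was 29.0 in place of 56.8. With all pooled rows, 59 genes were bound, 30 of complex I with 29 main subunits, 51 were the nearest gene, and the percentile was 78.0. The 200 bp window left 4 of complex IV, all main subunits. Like forms, 1 in the main setting, numbered 0 with 200 bp, 6 with 2 kb, 6 with all pooled rows, 3 where the interval had only to touch the window, and 2 with ND-MNLL among them. With either replicate alone, 41 to 43 genes, 39 to 41 main subunits and 2 like forms were bound, 17 to 19 in complex I, 5 to 6 in complex III (main subunits 4 to 5), 8 to 9 in complex IV (main subunits 7 to 8) and 10 in complex V, 30 to 31 were the nearest gene, and the percentile was 48.3 to 57.8. The cause of the moves was not tested beyond the construction of each set, which holds fewer or more summits.

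No paired analysis was possible because there is 1 group and no comparison between groups. The limits are the capped lists, the unknown depth and the peak score as the only measure. Embryos without the tag were not analysed here, so peaks that do not depend on sug-eGFP cannot be told apart from those that do.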

Other observations

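ND-B18, a subunit of complex I, had a promoter summit in both replicate lists (rank 7478 at 75 bp upstream of its TSS in replicate 1, and 7739 at 58 bp upstream in replicate 2) and none in the pooled list or the IDR set. ND-23, a core subunit of complex I with iron-sulfur clusters, had a summit in replicate 2 with rank 2917, at 131 bp upstream, and none within 1 kb in replicate 1 or in the pooled list.

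ND-MLRQ, ND-AGGG and UQCR-11 lie on 3L at 243865, 1880793 and 2025248 bp from the nearest IDR summit, farther than any other of the 80 genes. Each had a promoter summit in replicate 2, with rank 6518 at 0 bp, 8499 at 57 bp upstream and 6023 at 35 bp upstream of the TSS, and none in replicate 1. Of the 3, ND-AGGG alone had one in the pooled list, with rank 14469.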
